A study of Mus musculus with 16 samples.

Results

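The neurotrophin receptor gene Ngfr and 5 further genes of the neurotrophin system, Bdnf, Ntf3, Ntrk2, Ntrk3 and Sort1, were followed over 16 arrays of mouse wounds. These 6 members were 6 of the 20832 gene symbols named on the array, and every probe that mapped to one of them through RefSeq was read, which gave 12 of 27427 named probes (1 for Ngfr, 1 for Bdnf, 1 for Ntf3, 3 for Ntrk2, 4 for Ntrk3 and 2 for Sort1). Ngfr was chosen by its measured difference between estrogen-treated and untreated db/db wounds on these same arrays, and the values behind the choice of the other members are not known. The differences of the members are therefore given as descriptions, with no test.

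The study asked whether estrogen applied to the skin changes wound healing in mice with type 2 diabetes. Untreated diabetic mice (db/db) were 10-week-old females of C57BLKS/J Iar-+Leprdb/+Leprdb, a strain homozygous for a mutation of the leptin receptor, and the WT group were 10- to 12-week-old C57BL/6J females. Wounds of db/db + estrogen mice were treated daily with estradiol benzoate dissolved in sesame oil, and those of db/db + vehicle mice with sesame oil only. Each animal had full-thickness wounds on the back, and RNA came from a homogenate of the whole wound with the skin around it, so that fewer cells of a type and less RNA per cell cannot be told apart. Each group had 2 arrays on each of 2 labelled days, 7 and 14. WT and db/db mice also differ in strain and in age range, so that the mutation, the strain background and age cannot be told apart.

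Neurotrophins are secreted as proneurotrophins, cut to the mature form, and bound by the Trk receptor tyrosine kinases, of which TrkB (Ntrk2) prefers Bdnf and neurotrophin 4 (Ntf5), and TrkC (Ntrk3) prefers neurotrophin 3 (Ntf3). Ngfr encodes a receptor of the TNF receptor family that binds all mature neurotrophins with low affinity and, together with sortilin (Sort1), binds the proforms. In skin the system is best known for guiding and maintaining sensory nerve fibres, and its receptors are also found on Schwann cells and on cells of the hair follicle.

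The stretches just upstream of the start sites of Ngfr, Ntrk2 and Ntf3 are shown first, because these were the members whose levels stood higher in estrogen-treated wounds on labelled day 7. RefSeq on GRCm38.p6 gave promoter windows for 4 of the 6 members, with 1 window for Ngfr, 1 for Ntrk2, 2 for Ntf3 and 7 for Bdnf, and none was used for Ntrk3 and Sort1. Each line holds the 250 bases before a start site, 5′ to 3′ on the strand of the gene, and capitals mark the GC box GGGCGG on either strand, a sequence bound by Sp-family factors.
Ngfr, chr11:95587699-95587948, minus strand: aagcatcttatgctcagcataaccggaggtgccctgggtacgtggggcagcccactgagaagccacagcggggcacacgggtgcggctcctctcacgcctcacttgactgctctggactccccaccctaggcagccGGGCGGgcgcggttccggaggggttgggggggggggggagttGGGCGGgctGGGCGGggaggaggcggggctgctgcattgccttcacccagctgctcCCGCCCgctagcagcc
Ntrk2, chr13:58806319-58806568, plus strand: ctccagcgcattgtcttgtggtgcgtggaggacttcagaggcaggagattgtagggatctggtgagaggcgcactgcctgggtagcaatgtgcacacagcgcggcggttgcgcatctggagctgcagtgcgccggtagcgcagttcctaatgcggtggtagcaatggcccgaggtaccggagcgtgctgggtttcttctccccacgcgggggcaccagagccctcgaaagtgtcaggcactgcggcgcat
Ntf3, chr6:126166745-126166994, minus strand: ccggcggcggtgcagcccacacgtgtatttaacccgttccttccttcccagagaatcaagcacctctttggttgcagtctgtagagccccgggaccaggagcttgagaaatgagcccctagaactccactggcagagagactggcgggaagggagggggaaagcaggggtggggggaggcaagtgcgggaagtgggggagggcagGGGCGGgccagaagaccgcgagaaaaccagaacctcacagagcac
Ntf3, chr6:126164961-126165210, minus strand: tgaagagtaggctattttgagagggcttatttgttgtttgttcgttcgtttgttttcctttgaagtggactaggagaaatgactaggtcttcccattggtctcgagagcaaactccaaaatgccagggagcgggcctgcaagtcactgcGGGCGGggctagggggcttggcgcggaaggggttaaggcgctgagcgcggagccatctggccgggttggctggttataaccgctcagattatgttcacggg
The Ngfr window held 4 GC boxes, the 2 Ntf3 windows held 1 each and the Ntrk2 window held 0, whereas 32.7% of 32851 windows of the same length held at least 1. GC content was 70.4% for Ngfr, 62.8% for Ntrk2, and 62.0% and 54.0% for the 2 Ntf3 windows, against a median of 52.4% over all windows. The full estrogen response element, GGTCA and TGACC with NNN between them, was found on either strand in 0.0639% of all windows and in none of the 11 member windows. Its half-site GGTCA was found in 35.2% of all windows, in none of the 4 windows shown and in 3 of the 7 Bdnf windows. The E-box CANNTG was found in all 4 windows shown, as in 66.2% of all windows. These letters were searched only in the 250 bases of each window.

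Levels are log2 of the processed signal minus the log2 75th percentile of the array, so that 0 is the 75th percentile and 1 unit is a factor of 2. The 75th percentile ran from 1091 to 2548 over the 16 arrays, 0 spots were saturated, and between 70.1% and 79.0% of probes were well above background. Of the 12 member probes, 10 were well above background on all 16 arrays, and the other 2 (1 for Ntrk2 and 1 for Ntrk3) on 6 arrays each. On labelled day 7, replicate 1 of every group was on slide 1 and replicate 2 on slide 2. On labelled day 14, slide 3 held both db/db arrays and slide 4 both WT arrays, with 1 array of each treated group on either slide. For every gene, group and slide therefore cannot be told apart between db/db and WT on labelled day 14. The 2 labelled days were scanned on different days, so that the day of wounding and the scan cannot be told apart. The labelled days themselves are in doubt. A set of 40 fold changes between db/db and WT in the tables of the study matched the arrays of the same labelled day in 0 of 40 cases and those of the other labelled day in 40 of 40, to within 1%. Arrays are therefore named by their labelled day throughout, and no order in time is read from it.

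Ngfr was higher in estrogen-treated wounds than in every other group on both labelled days. On labelled day 7 its level was 3.69 and 3.75 on the 2 db/db + estrogen arrays, −0.90 and −2.07 on the db/db arrays, −0.50 and 0.41 on the db/db + vehicle arrays, and −2.18 and −0.60 on the WT arrays. The estrogen-treated arrays lay above all others, while WT and db/db overlapped. On labelled day 14 the level was 2.50 and 2.54 with estrogen, −2.36 and −2.52 in db/db, 0.48 and 1.63 with vehicle, and 0.26 and −2.14 in WT. Estrogen again lay above all others, db/db lay below WT without overlap, and the 2 WT arrays were far apart.

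**Figure D1:**
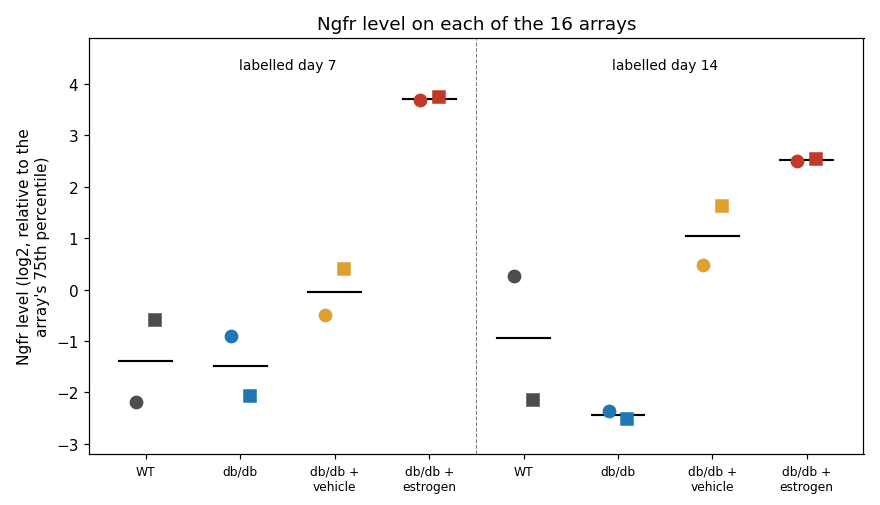
The level of Ngfr (vertical axis, log2 relative to the 75th percentile of the array) on each of 16 arrays, with circles for replicate 1, squares for replicate 2 and a bar at the mean of the 2. The db/db + estrogen arrays sit at 3.69 and 3.75 on labelled day 7 and at 2.50 and 2.54 on labelled day 14, above all other groups of the same labelled day.

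Estrogen-treated wounds exceeded untreated db/db wounds by 5.201 ± 0.78 (SE of the fit, n = 2 per group) on the log2 scale on labelled day 7, a factor of 36.8, and 4.96 ± 0.78 on labelled day 14, a factor of 31.1. Among all probes higher in db/db + estrogen, these differences held rank 20 of 30187 probes tested on labelled day 7 and rank 11 of 28245 on labelled day 14. This is the contrast that chose the gene. Within slides the difference was 4.58 on slide 1, 5.82 on slide 2, and 4.93 on slide 3. Estrogen-treated wounds were also higher than WT, by 5.11 ± 0.78 on labelled day 7 and by 3.46 ± 0.78 on labelled day 14.

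Oil alone was also accompanied by a higher Ngfr level. The difference between db/db + vehicle and db/db was 1.44 ± 0.78 on labelled day 7, a factor of 2.71, and 3.49 ± 0.78 on labelled day 14, a factor of 11.2. Both comparisons with db/db use the same untreated arrays. Against vehicle, the estrogen-treated wounds were higher by 3.76 ± 0.78 on labelled day 7, a factor of 13.6, and by 1.47 ± 0.78 on labelled day 14, a factor of 2.77. The 2 estrogen arrays were above both vehicle arrays on either day. Within slides, estrogen minus vehicle was 4.19 and 3.34 on labelled day 7 and 2.02 and 0.92 on labelled day 14, and vehicle minus db/db was 0.40 and 2.48 on labelled day 7 and 2.91 on slide 3. Leaving out 1 array at a time or changing the scaling moved the estrogen minus vehicle difference on labelled day 14 between 0.89 and 2.04.

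Diabetic and WT wounds did not separate in Ngfr on labelled day 7, where db/db minus WT was −0.09 ± 0.78 and the 2 slides gave 1.28 and −1.47. On labelled day 14 it was −1.49 ± 0.78, between −2.69 and −0.29 under the alternatives tried, and the 2 groups shared no slide, so that group and slide cannot be told apart. Ordered by mean level, the groups ran from db/db + estrogen on labelled day 7 (3.72) through db/db + estrogen on day 14 (2.52), db/db + vehicle on day 14 (1.05), db/db + vehicle on day 7 (−0.05), WT on day 14 (−0.94), WT on day 7 (−1.39) and db/db on day 7 (−1.48) to db/db on day 14 (−2.44). Neighbours from db/db + vehicle on day 7 down to db/db on day 7 overlapped in their arrays, and the other neighbours did not.

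The ligand genes were flatter. Bdnf, which encodes the brain-derived neurotrophic factor, stayed between −4.86 and −3.94 on all 16 arrays. Its level was −4.24 and −3.94 with estrogen, −4.26 and −4.33 in db/db, −4.76 and −4.18 with vehicle, and −4.50 and −4.14 in WT on labelled day 7. The labelled day 14 arrays read −4.59 and −4.62, −4.65 and −4.75, −4.86 and −4.71, and −4.37 and −4.12 in the same order. Within a labelled day no pair of groups differed by more than 0.54, the difference between db/db + vehicle and WT on labelled day 14. Estrogen minus db/db was 0.21 ± 0.21 and 0.10 ± 0.21 on the 2 labelled days.

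Ntf3, the gene of neurotrophin 3, was higher in estrogen-treated wounds on labelled day 7. The arrays read −1.66 and −2.14 with estrogen, −3.24 and −3.08 in db/db, −3.50 and −3.33 with vehicle, and −3.07 and −3.30 in WT, so that the estrogen group lay above the other 6 arrays of that day. The estrogen group exceeded db/db by 1.26 ± 0.42, with 1.59 and 0.94 on the 2 slides. Estrogen minus vehicle was 1.52 ± 0.42. The 2 estrogen arrays of labelled day 14 were far apart, at −4.22 and −2.65, and spanned the 2 db/db arrays at −3.15 and −3.56. The vehicle arrays read −4.19 and −3.82 and the WT arrays −3.71 and −3.24 on that day. Estrogen minus db/db was then −0.08 ± 0.42.

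Ntrk2, the gene of TrkB, was likewise higher with estrogen on labelled day 7, through all 3 of its probes. Probe A_55_P2006792 read 1.37 and 2.02 with estrogen, 0.40 and 0.29 in db/db, 0.44 and 0.15 with vehicle, and 0.37 and −0.03 in WT on labelled day 7. Probe A_65_P04961, matched to another Ntrk2 transcript, read −0.84 and 0.27, −1.77 and −2.86, −1.90 and −2.88, and −1.97 and −2.71 in the same order. In both probes the estrogen arrays lay above all other arrays of that day. Estrogen minus db/db was 1.35 ± 0.37 for the first probe, a factor of 2.55, and 2.03 ± 0.57 for the second, a factor of 4.07. The third probe, A_51_P393454, was well above background on both estrogen arrays and on neither db/db array, which gave a difference of at least 3.27-fold. That bound sets the mean of the brighter group against the lowest signal well above background on each dimmer array, or the probe itself where it was higher.

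The first Ntrk2 probe read 0.45 and 1.15 with estrogen, 0.67 and 0.27 in db/db, 0.03 and 0.82 with vehicle, and 0.46 and −0.30 in WT on labelled day 14, and the groups overlapped. The difference from db/db was 0.33 ± 0.37 for this probe and 0.64 ± 0.57 for A_65_P04961. Over the 16 arrays the 3 Ntrk2 probes correlated with each other at r between 0.88 and 0.95 (Pearson). Vehicle minus db/db lay between −0.08 and 0.17 for the 2 brighter-reading probes on the 2 labelled days, against 1.44 and 3.49 for Ngfr.

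Ntrk3, the gene of TrkC, was lower in db/db than in WT on both labelled days. Probe A_55_P2006808 read −2.67 and −3.05 in WT and −4.48 and −4.48 in db/db on labelled day 7, and −3.43 and −4.27 in WT and −4.76 and −5.89 in db/db on labelled day 14. The 2 groups did not overlap on either day. The difference, db/db minus WT, was −1.62 ± 0.55 on labelled day 7 and −1.48 ± 0.55 on labelled day 14. For A_52_P500274 it was −0.98 ± 0.45 and −1.14 ± 0.45, and for A_66_P118329 −1.08 ± 0.38 and −1.03 ± 0.38. The fourth probe, A_55_P2056533, read −6.28 and −3.84 in WT, both well above background, and −7.61 and −7.46 in db/db, both not, on labelled day 7. The WT arrays were far apart, so that the bound on their mean, at least 5.08-fold, rests on 1 of them: db/db minus WT was −1.26 without WT replicate 2 and −3.70 without WT replicate 1, and the 2 slides gave −1.33 and −3.63.

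In treated wounds Ntrk3 lay below WT as well. The margin was narrowest for A_52_P500274 on labelled day 7, at −3.68 and −3.11 with estrogen against −3.10 and −2.93 in WT. On labelled day 7, A_55_P2006808 read −4.14 and −3.87 with estrogen and −5.41 and −6.04 with vehicle, which put the vehicle arrays below and the estrogen arrays above the db/db arrays. Vehicle minus db/db was −1.24 ± 0.55, estrogen minus db/db 0.48 ± 0.55 and estrogen minus vehicle 1.72 ± 0.55. This was the 1 Ntrk3 probe that passed the thresholds of the study for vehicle against db/db on that day. On slides 1 and 2, vehicle minus db/db was −0.28 and −0.80 for A_52_P500274 and −0.12 and −1.45 for A_66_P118329. For the probes A_52_P500274 and A_66_P118329, estrogen minus vehicle was 1.14 ± 0.45 and 1.17 ± 0.38. Probe A_55_P2006808 read −6.78 and −5.03 with estrogen and −5.82 and −5.43 with vehicle on labelled day 14, and both groups overlapped with db/db. Correlations among the 4 Ntrk3 probes ran from r = 0.77 to 0.95 over the 16 arrays.

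Sort1, which encodes sortilin, the partner of Ngfr in binding proneurotrophins, was flat like Bdnf. Its probe A_52_P590396 stayed between −0.27 and 0.97 on all arrays and A_51_P517145 between −4.44 and −2.95. Estrogen minus db/db was −0.12 ± 0.28 and −0.11 ± 0.28 for the first probe, and −0.21 ± 0.24 and −0.06 ± 0.24 for the second, on labelled days 7 and 14. The groups overlapped in all 4 cases. The largest difference of the second probe between db/db and WT was 0.58 ± 0.24, on labelled day 14.

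**Figure D2:**
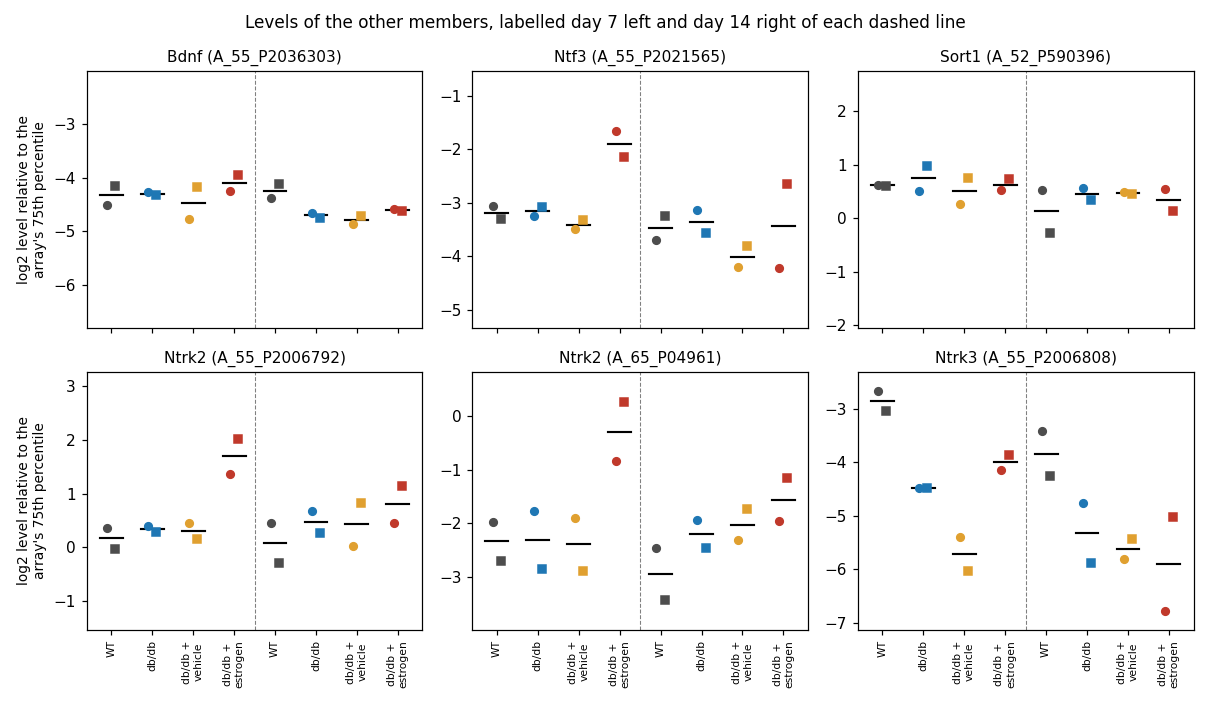
Levels of 6 probes of the members other than Ngfr (vertical axes, log2 relative to the 75th percentile of the array, each spanning the same range) on 16 arrays, with circles for replicate 1, squares for replicate 2 and bars at the means. Ntf3 and both Ntrk2 probes stand higher with estrogen on labelled day 7, the Ntrk3 probe is highest in WT, and Bdnf and Sort1 are flat.

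The thresholds of the study, an unadjusted two-sided p under 0.05 in limma's moderated test and a fold change over 2, were applied to all probes, and the counts for the member probes are given beside those for all probes without reading anything from them. For estrogen against untreated db/db on labelled day 7, 5 of 11 member probes passed as higher (from Ngfr, Ntf3 and Ntrk2) and 0 as lower, beside 5.22% and 4.71% of 30187 probes. That Ngfr passed here follows from its choice by this contrast. The Ntrk2 probe A_51_P393454 entered the test only through the estrogen arrays, where it was higher. Probes of the same gene are counted separately here and are not independent. The counts of labelled day 14 were 1 (Ngfr) and 0 of 10, against 2.56% and 1.36%. For estrogen against vehicle, 8 of 11 passed as higher and 0 as lower on labelled day 7, against 4.66% and 4.32%, and 0 of 10 in either direction on labelled day 14, against 0.507% and 0.476%. For db/db + vehicle and db/db, 0 passed as higher and 1 as lower (Ntrk3) of 10 on labelled day 7, against 2.52% and 2.3%, and 1 (Ngfr) as higher and 0 as lower of 10 on labelled day 14, against 5.31% and 2.2%. For db/db and WT, 0 passed as higher and 3 as lower, all of Ntrk3, on either day, of 11 against 5.67% and 8.42% and of 10 against 2.35% and 15.6%. The Ntrk3 probe A_55_P2056533 entered that comparison on labelled day 7 only through the WT arrays, where it was higher.

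**Figure D3:**
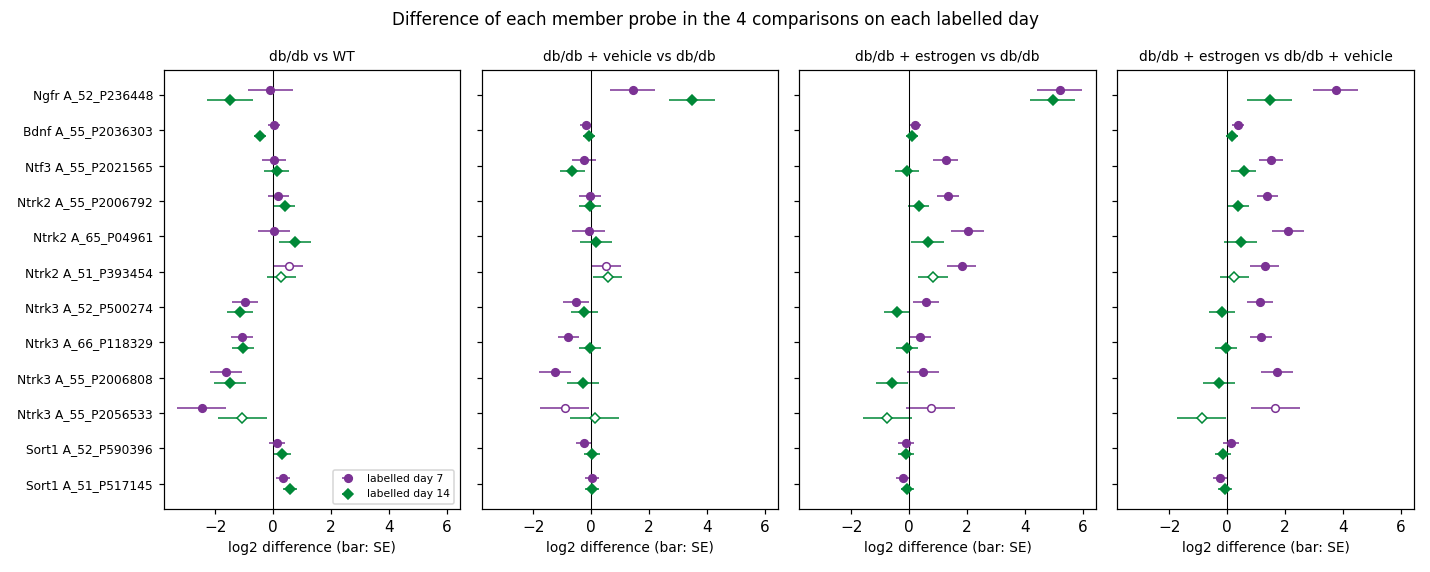
Log2 differences of the 12 member probes (horizontal axes) in 4 comparisons, with circles for labelled day 7, diamonds for labelled day 14, bars for the SE of the fit, and open symbols where the probe was not well above background on both arrays of either group. Ngfr lies at 5.201 and 4.96 for db/db + estrogen vs db/db and at 1.44 and 3.49 for db/db + vehicle vs db/db, and the 4 Ntrk3 probes lie below 0 for db/db vs WT.

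Across the 16 arrays, the level of Ngfr correlated with Ntrk2 at r = 0.72, with Ntf3 at 0.35, with Bdnf at 0.18, with Sort1 at 0.10 and with Ntrk3 at −0.07, and Ntf3 correlated with Ntrk2 at 0.67. These values describe arrays that share groups and slides. The 10 named genes most like Ngfr by the same measure, among 22109 probes, were Greb1 (r = 0.93), Glud1, Tnfrsf17, Pld4, Ptpn5, Celf4, Cyth3, Abca9, Gm5431 and Znhit6, the last at 0.88. All 10 were well above background on every array.

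Greb1, best known as an estrogen-responsive gene of breast cancer cells, headed the list. Its level was 1.25 and 1.47 with estrogen, −2.94 and −2.74 in db/db, −0.51 and −0.68 with vehicle, and −2.54 and −2.61 in WT on labelled day 7. Its arrays of labelled day 14 read 0.36 and 0.72, −3.13 and −2.83, −0.88 and 0.27, and −2.34 and −2.32. The vehicle arrays lay between the untreated and the estrogen-treated arrays on both days, as they did for Ngfr. Because the genes of this list were picked by their correlation with Ngfr on these same arrays, a shared order of groups is no separate result. Ptpn5, a tyrosine phosphatase gene best known from the brain, read 0.13 and 0.17 with estrogen, −4.14 and −4.87 in db/db, and −1.11 and −1.53 with vehicle on labelled day 7. The arrays of labelled day 14 read 0.63 and 0.80, −4.73 and −4.26, and −0.34 and 0.53. Tnfrsf17, the gene of the B cell maturation antigen and like Ngfr of the TNF receptor family, read −2.56 and −2.31 with estrogen, −5.72 and −5.07 in db/db, and −4.38 and −4.13 with vehicle on labelled day 7. On labelled day 14 it read −3.93 and −2.93, −5.01 and −6.06, and −5.14 and −3.76, and the vehicle arrays overlapped with both other groups.

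**Figure D4:**
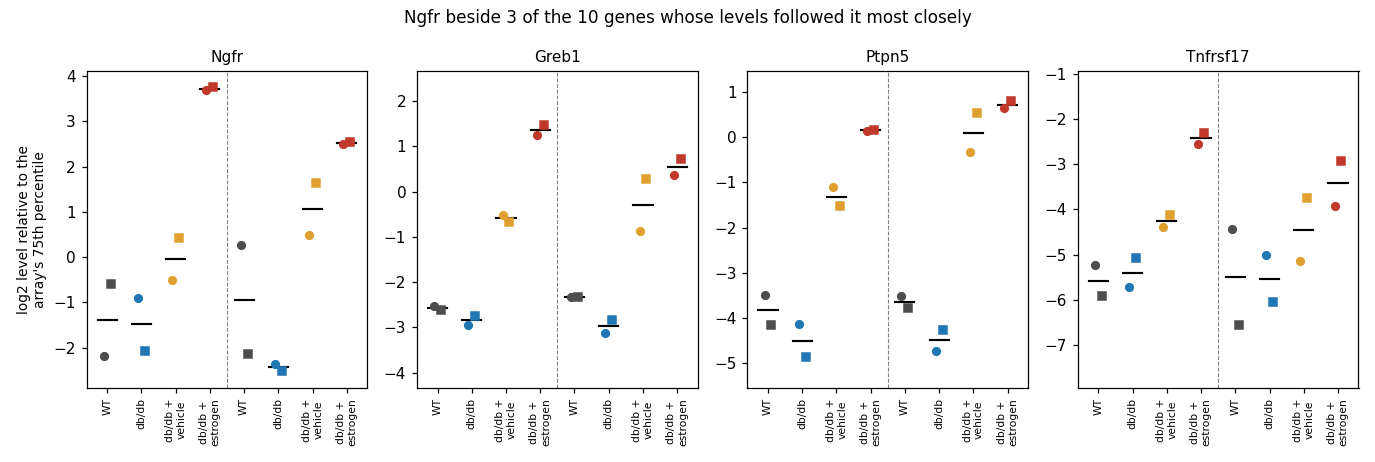
Levels of Ngfr, Greb1, Ptpn5 and Tnfrsf17 (vertical axes, log2 relative to the 75th percentile of the array, each spanning the same range) on 16 arrays, with circles for replicate 1, squares for replicate 2 and bars at the means, labelled day 7 left and day 14 right of the dashed line. In each gene the mean with vehicle lies between those of db/db and db/db + estrogen. The genes beside Ngfr were picked by their correlation with it on these same arrays.

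The rest of the neurotrophin pathway was read through a list of 65 further genes, of which 64 had a probe, 54 were well above background on all arrays and 2 on no array. In the comparison of db/db + estrogen with db/db on labelled day 7, 2 of 61 genes tested rose and 9 fell, beside 5.22% and 4.71% of all probes. The median log2 difference over the genes tested was −0.19, beside 0.04 over all probes. In the same comparison on labelled day 14, 1 of 59 rose and 8 fell, beside 2.56% and 1.36% of all probes, with a median of −0.13 beside 0.05. With vehicle alone, 1 of 60 rose and 6 fell on labelled day 7, beside 2.52% and 2.3% of all probes, and 2 of 60 rose and 5 fell on labelled day 14, beside 5.31% and 2.2%. Those comparisons share the db/db arrays. After Benjamini-Hochberg adjustment over all probes tested, 8 of the 11 genes on labelled day 7 passed 0.05 with estrogen and 0 of 9 on labelled day 14.

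Between WT and db/db, 9 of 60 genes rose and 4 fell in db/db on labelled day 7, beside 5.67% and 8.42% of all probes, and 7 of 59 rose and 1 fell on labelled day 14, beside 2.35% and 15.6%. The medians were 0.20 and 0.18, beside −0.05 and −0.12 over all probes. Without replicate 1 of db/db on labelled day 7 the 13 calls became 6. Between estrogen and vehicle, 3 of 60 rose and 3 fell on labelled day 7, beside 4.66% and 4.32% of all probes, and 0 of 59 rose and 1 fell on labelled day 14, beside 0.507% and 0.476%. Without replicate 1 of db/db + estrogen the 6 calls of labelled day 7 became 3. The 1 call of labelled day 14 became 0 without replicate 2 of db/db + estrogen and 2 without its replicate 1. Without replicate 1 of db/db on labelled day 14 the 9 calls of estrogen against db/db became 5, and without its replicate 2 the 7 calls of vehicle against db/db became 4. A limma test of whether differences changed between labelled days called 0 pathway genes at adjusted p under 0.05 in each of 4 comparisons. Genes tested were 60 for db/db vs WT, 61 for estrogen vs db/db, 60 for vehicle vs db/db and 61 for estrogen vs vehicle. Over all probes tested, 214 of 30890, 29 of 30429, 0 of 30511 and 3 of 30629 passed in the same order. At an unadjusted p under 0.05 the pathway counts were 5, 8, 0 and 9, and the share of all probes was not taken.

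Among the ligand genes of the list, Ntf5, the gene of the other TrkB ligand, stayed just inside the 2-fold limit and was not called. It read −2.46 and −2.06 with estrogen, −3.29 and −3.22 in db/db, −2.49 and −2.74 with vehicle, and −2.66 and −2.27 in WT on labelled day 7. The db/db arrays were the lowest of that day. Estrogen minus db/db was 1.00 ± 0.20 (adjusted p = 0.020), and db/db minus WT was −0.80 ± 0.20 (adjusted p = 0.030) on labelled day 7 and −0.96 ± 0.20 (adjusted p = 0.011) on labelled day 14.

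Among 8 receptor and co-receptor genes, Sorl1, a sortilin-family receptor, rose in db/db against WT by 1.01 ± 0.20 (adjusted p = 0.011) on labelled day 7. It fell by 1.75 ± 0.20 with estrogen (adjusted p = 0.0015) and by 1.43 ± 0.20 with vehicle (adjusted p = 0.032) against db/db on that day. Its arrays read −1.31 and −1.31 with estrogen, −0.96 and −1.03 with vehicle, and 0.66 and 0.21 in db/db, without overlap. Sorcs2, another sortilin-family receptor and a partner of Ngfr, fell with estrogen against db/db by 1.49 ± 0.48 (adjusted p = 0.11) on labelled day 7 and by 1.13 ± 0.48 (adjusted p = 0.52) on labelled day 14. Against vehicle it fell by 1.44 ± 0.48 (adjusted p = 0.13) on labelled day 7.

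Genes of proneurotrophin processing gave the largest changes of the list on labelled day 7. Mmp9, a gelatinase that cleaves proneurotrophins, read −4.06 and −4.08 with estrogen, 1.88 and 0.44 in db/db, 1.19 and −0.33 with vehicle, and −4.36 and −2.12 in WT on labelled day 7. The estrogen and WT arrays lay far below the others. Mmp9 rose by 4.40 ± 1.04 in db/db against WT (adjusted p = 0.023) and fell by 5.24 ± 1.04 with estrogen against db/db (adjusted p = 0.019). Estrogen minus vehicle was −4.50 ± 1.04 for Mmp9 (adjusted p = 0.050). Mmp7, matrilysin, rose in db/db by 1.99 ± 0.42 (adjusted p = 0.015) and fell with estrogen by 2.87 ± 0.42 against db/db (adjusted p = 0.0050) and by 1.58 ± 0.42 against vehicle (adjusted p = 0.071). Furin, the main proprotein convertase, fell with estrogen by 1.04 ± 0.15 on labelled day 7 (adjusted p = 0.0051). Plau, the urokinase gene, rose with estrogen by 1.33 ± 0.30 against db/db (adjusted p = 0.031) and by 1.11 ± 0.30 against vehicle (adjusted p = 0.075). Of Plg, which encodes plasminogen, both estrogen arrays and neither vehicle array were well above background (at least 1.59-fold higher, adjusted p = 0.22).

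Markers of neutrophils, cells that carry Mmp9, were low with estrogen on labelled day 7, as Mmp9 was. In WT the list was split on that day. Ngp, Ltf, Camp and Retnlg had means of −7.54, −5.63, −3.69 and −5.29 in WT, against 1.88, 2.51, 3.39 and 4.39 in db/db. S100a8 and S100a9 were high in both, at 6.55 and 7.69 in WT and 7.30 and 7.75 in db/db. Of 7 neutrophil genes tested, 5 rose in db/db against WT, 7 fell with estrogen and 3 with vehicle against db/db, and 5 fell with estrogen against vehicle on that day. The shares of all probes were 5.67%, 4.71%, 2.3% and 4.32% in the same order. Their summed linear level, in multiples of the 75th percentile, was 6.16 to 25.1 with estrogen, 394 to 446 in db/db, 404 to 426 with vehicle and 297 to 305 in WT. S100a8 and S100a9 made up most of this sum in WT and db/db. The mean log2 level of the list was −3.12 to −2.71 with estrogen, 3.54 to 4.32 in db/db, 0.14 to 0.93 with vehicle and −1.50 to −1.11 in WT. The sum lay between 255 and 432 over all groups of labelled day 14. The part of these cells in the Mmp9 values was not tested.

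Mmp3, stromelysin, and Pcsk5, a proprotein convertase, fell with both treatments on both labelled days. Against db/db, Mmp3 fell with estrogen by 2.44 ± 0.80 (adjusted p = 0.11) on labelled day 7 and by 1.84 ± 0.80 (adjusted p = 0.53) on labelled day 14, and with vehicle by 2.76 ± 0.80 (adjusted p = 0.19) and 1.96 ± 0.80 (adjusted p = 0.25). Pcsk5 fell with estrogen by 1.79 ± 0.49 (adjusted p = 0.066) and 1.68 ± 0.49 (adjusted p = 0.31), and with vehicle by 1.82 ± 0.49 (adjusted p = 0.17) and 1.62 ± 0.49 (adjusted p = 0.16). The unadjusted p passed in all 8 cases and the adjusted p in none. The second probe of Pcsk5 was not called in any of these comparisons.

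Of 16 genes of Ngfr cleavage and adaptors, none passed with estrogen against db/db on either labelled day. The shares of all probes were 5.22% higher and 4.71% lower on labelled day 7, and 2.56% and 1.36% on labelled day 14. Bex3, whose product binds the intracellular part of Ngfr, rose in db/db against WT by 1.27 ± 0.24 (adjusted p = 0.010) on labelled day 7 and by 1.14 ± 0.24 (adjusted p = 0.012) on labelled day 14. Psen2, a subunit of the secretase that releases the intracellular part of Ngfr, rose by 1.13 ± 0.20 (adjusted p = 0.0076) on labelled day 7. Zfp369, a zinc finger gene, fell in db/db by 1.14 ± 0.41 (adjusted p = 0.094) and 1.22 ± 0.41 (adjusted p = 0.062) on the 2 labelled days. Bex1, a relative of Bex3, fell with vehicle by 1.85 ± 0.66 (adjusted p = 0.27) on labelled day 7.

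Of the 18 genes of Trk adaptors and signalling, Rasgrf1 was the 1 that rose against db/db with estrogen, and likewise with vehicle. The shares of all probes that rose were 5.22% and 2.56% with estrogen on labelled days 7 and 14, and 2.52% and 5.31% with vehicle. Rasgrf1, an exchange factor for Ras, read −4.81 and −4.63 with estrogen, −4.65 and −4.73 with vehicle, −6.88 and −6.98 in db/db, and −6.99 and −6.30 in WT on labelled day 7. Both treated groups lay above both untreated groups. It rose by 2.21 ± 0.40 with estrogen (adjusted p = 0.012) and by 2.24 ± 0.40 with vehicle (adjusted p = 0.072) on labelled day 7, and by 1.51 ± 0.40 (adjusted p = 0.25) and 2.49 ± 0.40 (adjusted p = 0.050) on labelled day 14. Over the 16 arrays it correlated with Ngfr at r = 0.74. A second Rasgrf1 probe was not called. Sh2b2, an adaptor of Trk and insulin receptors, rose in db/db against WT by 2.51 ± 0.31 (adjusted p = 0.0013) on labelled day 7 and by 1.18 ± 0.31 (adjusted p = 0.025) on labelled day 14. It fell with estrogen by 2.02 ± 0.31 (adjusted p = 0.0056) on labelled day 7. Shc3, a Trk adaptor of neurons, fell in db/db by 1.30 ± 0.43 (adjusted p = 0.074) on labelled day 7.

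Early target genes were higher in db/db than in WT on labelled day 14, where 5 of 9 tested rose and 0 fell. Of all probes, 2.35% rose and 15.6% fell, and the 2 groups shared no slide on that day. Nr4a1, a nuclear receptor induced by growth factors, read 5.22 and 4.31 in db/db and 1.73 and 1.78 in WT, a rise of 3.01 ± 0.58 (adjusted p = 0.0078). Fos rose by 2.58 ± 0.52 (adjusted p = 0.0091) and Egr1 by 1.53 ± 0.38 (adjusted p = 0.022), both transcription factor genes of the immediate early response. Against db/db on the same labelled day, 5 fell with estrogen and 0 rose, among them Nr4a1 by 1.98 ± 0.58 (adjusted p = 0.30) and Fos by 1.64 ± 0.52 (adjusted p = 0.34). In that comparison 1.36% of all probes fell and 2.56% rose. With vehicle, Nr4a1 fell by 2.14 ± 0.58 (adjusted p = 0.13). Many other inputs than neurotrophins induce these genes. Vgf, a gene induced by neurotrophins in neuronal cells, stood well above background on the 2 db/db arrays of labelled day 7 and on no WT or estrogen array (at least 1.99-fold higher than WT, adjusted p = 0.017, and at least 3.07-fold lower with estrogen, adjusted p = 0.014). Egr2 fell in db/db by 1.38 ± 0.56 (adjusted p = 0.13) on labelled day 7, and Spry2, an inhibitor of receptor tyrosine kinase signalling, rose with estrogen against vehicle by 1.07 ± 0.22 (adjusted p = 0.034).

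**Figure D5:**
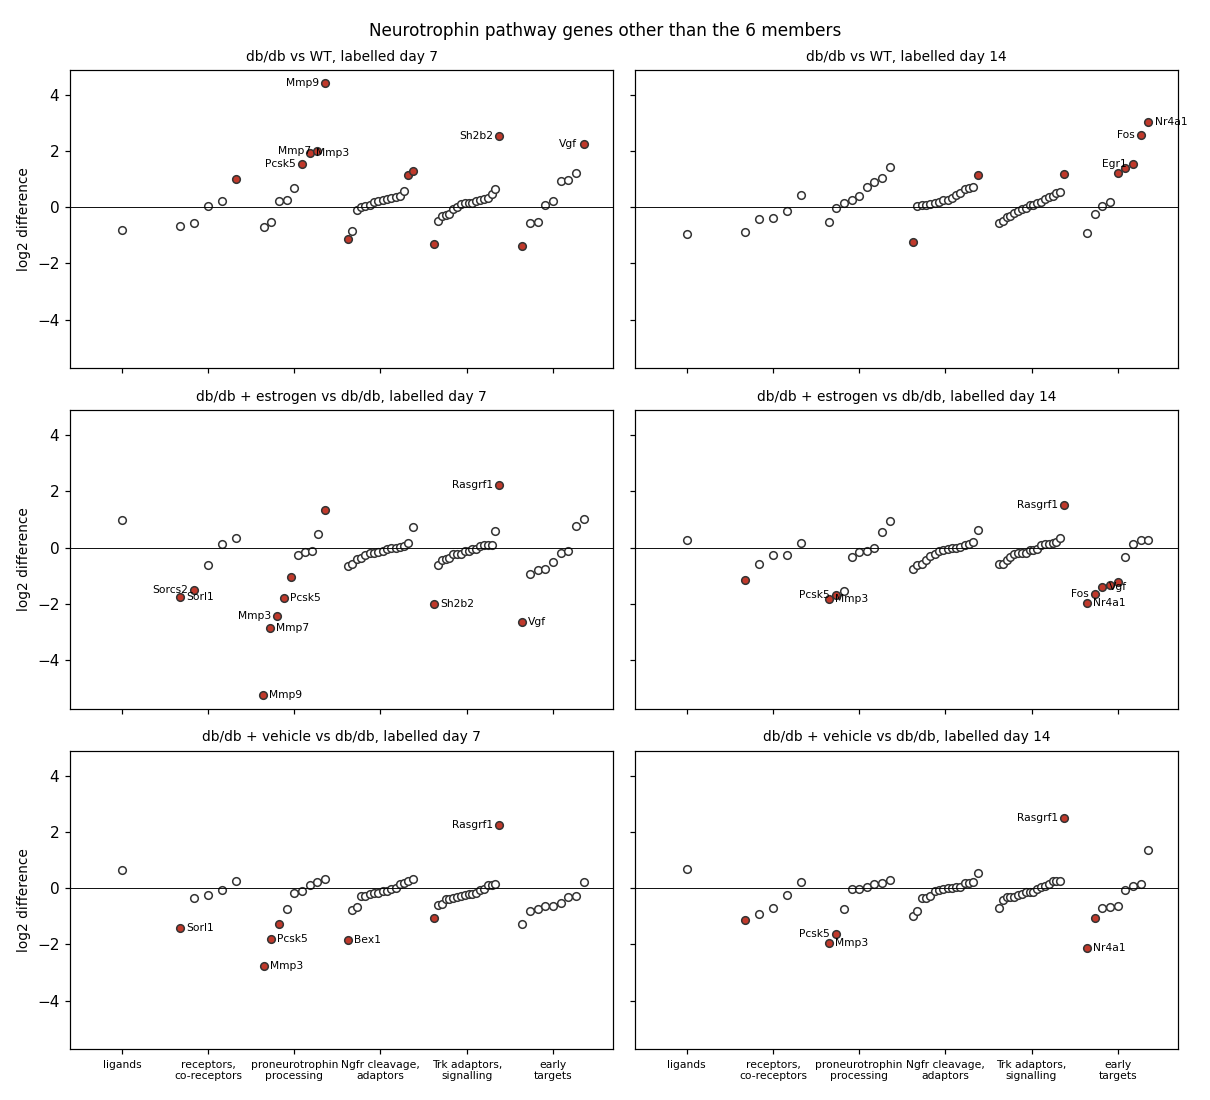
Log2 differences of the neurotrophin pathway genes other than the members (vertical axes) by role, with 1 point for each gene tested and reported here, filled where the unadjusted p was under 0.05 and the fold change over 2, and names on the filled points furthest from 0. With estrogen on labelled day 7 the largest falls are in proneurotrophin processing, led by Mmp9 at −5.24, and Rasgrf1 is the highest point with both treatments on both labelled days.

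Other members of the TNF receptor family were read beside Ngfr. Of 22 of these genes tested, 3 rose and 3 fell with estrogen against db/db on labelled day 7, and 1 of 21 rose and 0 fell on labelled day 14. Of all probes, 5.22% rose and 4.71% fell on labelled day 7, and 2.56% and 1.36% on labelled day 14. The gene that rose on both labelled days was Tnfrsf17, by 2.96 (adjusted p = 0.039) and 2.11 (adjusted p = 0.38). Tnfrsf19, a receptor of hair follicle and epithelial cells, rose by 2.62 (adjusted p = 0.0063) on labelled day 7 and had fallen in db/db against WT by 3.14 (adjusted p = 0.0019). Tnfrsf25, a death receptor of T cells, rose by 1.51 (adjusted p = 0.0067). Those that fell were Tnfrsf9 by 2.17 (adjusted p = 0.043), Tnfrsf11b by 1.18 (adjusted p = 0.16) and Tnfrsf1b by 1.01 (adjusted p = 0.031).

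Markers of cells in which Ngfr is known were set beside its level, with each list summed on the linear scale in multiples of the 75th percentile. Of all probes, 5.22% rose and 4.71% fell with estrogen against db/db on labelled day 7, and 2.56% and 1.36% on labelled day 14. With vehicle these shares were 2.52% and 2.3% on labelled day 7, and 5.31% and 2.2% on labelled day 14. They stand beside the counts of every marker list below. Of 12 Schwann cell genes, 3 rose (Sox10 by 1.01, S100b by 1.22 and Erbb3 by 1.24) and 0 fell with estrogen against db/db on labelled day 7, and 0 of 11 passed in either direction on labelled day 14. Their summed level was 6.05 to 7.29 with estrogen and 4.78 to 5.04 in db/db on labelled day 7, and 4.82 to 6.12 and 5.09 to 5.64 on labelled day 14. The 2 groups overlapped on labelled day 14 and did not on labelled day 7. With vehicle the sum was 5.05 to 6.70 and 5.19 to 5.31, and 1 of 12 genes rose and 0 fell on labelled day 7, and 1 of 11 rose and 2 fell on labelled day 14, against db/db.

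Most genes of the inner root sheath and hair shaft rose with estrogen on labelled day 7, and a smaller part of the other hair follicle lists did. Of 17 genes of the inner root sheath and hair shaft, 14 rose and 0 fell with estrogen against db/db, among them Krt71 by 9.21 and Krt25, which was on no db/db array well above background, at least 388-fold, and 0 of 13 passed on labelled day 14. With vehicle, 6 of 15 of these genes rose on labelled day 7 and 2 of 13 on labelled day 14, and 0 fell. Of 5 outer root sheath and bulge genes, 2 rose with estrogen on labelled day 7 (Lhx2 by 3.33 and Krt15 by 3.31) and 1 fell on labelled day 14 (Lgr5 by 1.73), and with vehicle 0 passed on labelled day 7 and 1 rose on labelled day 14. The summed level of the outer root sheath and bulge genes was 62.7 to 73.1 with estrogen, 4.63 to 13.8 in db/db and 5.74 to 37.1 with vehicle on labelled day 7, and 11.02 to 12.2, 7.21 to 17.1 and 15.8 to 18.3 on labelled day 14. In WT it was 18.9 to 24.3 on labelled day 7. Krt15 was the brightest gene of the list in WT and db/db on that day and made up most of the sum there. The mean log2 level of the list was −0.53 to −0.41 with estrogen, −2.23 to −2.01 in db/db and −0.50 to −0.17 in WT on labelled day 7. Of 8 melanocyte genes, 5 rose on labelled day 7 and 2 of 6 fell on labelled day 14. The summed level of the melanocyte genes on labelled day 7 was 3.03 to 4.94 with estrogen, 1.59 to 1.69 in db/db and 7.59 to 10.9 in WT. Of the sensory axon genes, 1 of 7 rose (Snap25) and 1 fell (Tubb3) on labelled day 7 and 0 of 8 passed on labelled day 14. For dermal papilla genes, 3 of 10 rose and 1 fell on labelled day 7, and 0 rose and 1 fell on labelled day 14. Of 8 epidermal genes, 2 rose with estrogen on labelled day 7 (Trp63 by 1.42 and Krt5 by 1.06) and 1 on labelled day 14 (Trp63 by 1.16), and with vehicle 1 and 2 rose. Of 8 adipocyte genes, 1 rose with estrogen on labelled day 7 (Lpl by 1.84). Over the 16 arrays, r with Ngfr ran from −0.08 (Krt1) to 0.57 (Krt5) in the epidermal list and from −0.38 (Retn) to 0.70 (Lpl) in the adipocyte list. It ran from −0.06 (Lyz2) to 0.71 (Csf1r) in the macrophage list. In the Schwann cell list the range was −0.18 (Gfap) to 0.30 (L1cam), and in the melanocyte list −0.22 (Mlana) to 0.31 (Oca2). For the inner root sheath and hair shaft it was −0.04 (Padi3) to 0.56 (Krt34). The outer root sheath and bulge list gave −0.26 (Lgr5) to 0.57 (Krt15), and fibroblasts −0.29 (Lum) to 0.63 (Pdgfra). All r were negative for neutrophils, −0.67 (Cxcr2) to −0.30 (Retnlg), and endothelium, −0.62 (Emcn) to −0.04 (Tek). In the remaining lists r ran from −0.58 (Uchl1) to 0.51 (Tac1), both of the sensory axon list. With estrogen, 1 of 5 macrophage genes fell on labelled day 7 (Lyz2 by 1.35), 1 of 6 mast cell genes on both labelled days (Hdc by 3.03 and by 1.95), and 1 of 7 pericyte and smooth muscle genes on labelled day 14 (Cnn1). None of 8 fibroblast, 8 endothelial or 8 skeletal muscle genes passed with estrogen on either day. Every gene of these lists with a probe was well above background on at least 1 array. The part of these cells in the values of Ngfr, Ntf3 and Ntrk2 was not tested on either labelled day.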

How the data were processed

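Whole-wound RNA was hybridised to 1-colour Agilent mouse arrays, 1 array a sample and 2 a group. The deposited spot intensity values and the 0 or 1 marks for background, saturation and outliers came from Feature Extraction 11.0.1.1. The authors also deposited a ratio of each signal to the 75th percentile of its array, which was used as an alternative. Levels were computed as log2 of the processed signal minus the log2 75th percentile over non-control probes. Outlier spots were left out and spots of a probe averaged. The test was that of limma 3.58.1 (R 4.3.3), for probes that both arrays of 1 or both groups marked as well above background, in 1 model of 8 groups with 8 residual degrees of freedom. A call needed an unadjusted two-sided p under 0.05 and a fold change over 2, as in the methods of the study, with Benjamini-Hochberg adjusted p-values over all probes tested given beside it. A gene of a list was read through its probe of highest mean level. In each comparison the 3 called pathway genes and the 2 called genes of a related family with the largest difference in each direction were to be named, with the 2 genes of largest difference of a marker list and the 10 genes most correlated with Ngfr. Other called genes were named after their values were seen. The members and lists were chosen with earlier results of these data known. The fits were tested on simulated data. Alternatives covered background correction, scaling, the filter on dim probes, the slide or replicate number as a block, and leaving out each array. Of 39429 probes, 27427 had a gene name through RefSeq. The number of arrays limits the precision. Some genes of the pathway list enter its counts and medians but are not reported here by name.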

Additional observations from a re-analysis of the deposited data

How the results depend on the processing

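Of 864 differences of member probes under the alternatives, 790 moved by less than the spread between replicates, 74 moved by more and 0 reversed, and of 243 that were over 1 log2 unit, 22 moved by more. Not every change of sign was counted as reversed. Ngfr for db/db vs WT on labelled day 7 ran from −0.88 to 0.70 under the alternatives. Background correction by normexp moved 16 of 96, the slide as a block 9 and quantile normalization 7. Ngfr with estrogen against db/db ranged from 4.61 to 5.79 on labelled day 7 and from 4.66 to 5.04 on labelled day 14.

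The number of pathway genes called fell under an adjusted p from 13 to 7 for db/db vs WT, from 7 to 1 for vehicle vs db/db and from 6 to 2 for estrogen vs vehicle on labelled day 7, and on labelled day 14 from 9 to 0 for estrogen vs db/db, from 7 to 1 for vehicle vs db/db and from 1 to 0 for estrogen vs vehicle. With normexp it fell from 6 to 3 for estrogen vs vehicle on labelled day 7. A fit of the 4 arrays alone called 5 in place of 9 for estrogen vs db/db on labelled day 14. For estrogen vs vehicle on that day, 0 were called with that fit, with normexp, or with the probe well above background on all 4 arrays, and 2 with no filter on dim probes. These fits have fewer arrays or other probes, and the cause of the normexp changes was not tested.

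Leaving out 1 array at a time gave 6 to 13 calls for db/db vs WT, 10 to 14 for estrogen vs db/db, 5 to 7 for vehicle vs db/db and 3 to 8 for estrogen vs vehicle on labelled day 7, and 6 to 11, 5 to 8, 4 to 5 and 0 to 2 in the same order on labelled day 14. The lone array was then assumed to vary like the other groups. Deviations of arrays with the same replicate number correlated between −0.46 and 0.39 across groups, so that the numbers did not pair the samples. With the replicate block, 13, 12, 7 and 6 genes were called on labelled day 7 and 8, 8, 7 and 1 on labelled day 14. With the numbers crossed, a pairing chosen after seeing the data, db/db vs WT gave 13, estrogen vs db/db 11 and estrogen vs vehicle 5 on labelled day 7, and db/db vs WT 9, estrogen vs db/db 9 and vehicle vs db/db 7 on labelled day 14.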

Other observations

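The GDNF family, the other family of neurotrophic factors with receptors on nerve and follicle cells, was read through 9 genes. Gfra3, the receptor of artemin, fell in db/db against WT by 1.83 (limma, adjusted p = 0.034) on labelled day 7, and rose with estrogen against db/db by 2.07 (adjusted p = 0.035) and against vehicle by 1.97 (adjusted p = 0.056). Gfra1, the receptor of Gdnf, fell with vehicle against db/db by 2.29 (adjusted p = 0.022) and rose with estrogen against vehicle by 2.69 (adjusted p = 0.0030) on the same day. Gdnf itself fell with estrogen against db/db by 1.02 (adjusted p = 0.022). On labelled day 14, 1 of 8 genes of the family tested passed with estrogen against db/db, beside 2.56% of all probes higher and 1.36% lower. It was Artn, which fell by 1.08 (adjusted p = 0.41). Whether these differences changed between the labelled days was not tested for this family.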
